A study of Mus musculus with 15 samples.

Results

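The AP-1 and EGR immediate early factors are 10 genes, *Fos*, *Fosb*, *Fosl1*, *Fosl2*, *Jun*, *Junb*, *Jund*, *Egr1*, *Egr2* and *Ier3*, taken by name from the 78317 gene identifiers of the count table. They were followed in 15 RNA-seq libraries of MH-S, a murine line of alveolar macrophages transformed with SV40. There were 5 groups with 3 wells in each, all harvested after 24 h. M0 received medium alone, M1 received LPS at 1 µg/mL with IFN-γ at 20 ng/mL, M2 received IL-4 at 20 ng/mL, and the microrod groups received rods built from calcium phosphate (CaP) or silica (SiO2) nanoparticles with alginate, protamine and carboxymethyl chitosan at 0.1 mg/mL. Each microrod well held particles of a separate preparation, and a single cell passage was used throughout, so replicate error holds well and preparation differences and no difference between passages. The question put to these genes is whether a particle that macrophages take up leaves a different set of immediate early transcripts than the polarizing stimuli do.

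AP-1 is a dimer of basic leucine zipper proteins. The FOS proteins pair with JUN proteins and cannot pair among themselves, whereas JUN proteins can also pair with each other, and the dimers bind the DNA element TGACTCA, the TPA response element (TRE), or the related cyclic AMP response element (CRE). *Fos*, *Fosb*, *Jun*, *Junb*, *Egr1*, *Egr2* and *Ier3* are among the first genes that MAP kinase, serum response factor and NF-κB signalling switch on in a stimulated macrophage, and their transcripts are short-lived. A harvest after a day of stimulation therefore comes after the first burst. The wells were washed before lysis, and an effect of this handling on the transcripts was not tested. The EGR proteins are zinc finger factors, and *Ier3* codes for a small protein that is induced early and is known for roles in cell survival and in limiting NF-κB signalling.

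The total count of a library lay between 8459643 and 68750050. MH-S cells carried macrophage transcripts in all libraries, with a summed level of 12 markers of 1460 to 3660 CPM (counts divided by library size after TMM scaling, on the usual CPM scale). Of these, *Lyz2* and *Cd68* had the highest medians, 1620 and 972 CPM. The alveolar macrophage markers *Marco* and *Siglecf* reached at most 2.81 and 0.477 CPM, and *Itgax* and *Pparg*, also among the 12, at most 4.92 and 0.657 CPM. The 23 markers of fibroblasts, epithelium, endothelium, T cells, B cells and neutrophils summed to 0.453 to 3.07 CPM per library, with 0.578 to 1.10 in M0, 1.84 to 3.07 in M1, 1.31 to 2.10 in M2, 0.97 to 1.54 with CaP microrods and 0.453 to 1.22 with SiO2 microrods, and 2 of the 23 were at 0 in all libraries. M0 replicate 3, M2 replicate 2 and SiO2 replicate 2 stood apart from their groups on the second principal component. Mitochondrial genes took 1.49 to 2.18% of counts in M0, 0.888 to 1.05% in M1 and 1.13 to 1.51% with microrods, and 2.13% in M2 replicate 2 against 1.03 and 1.28% in the other M2 libraries, and their part in the results was not tested. Each of the 3 libraries was the smallest of its group, and each call of a named gene that was lost without them is given with its value.

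The windows of 250 bases before the annotated transcription starts of *Fos*, *Jun*, *Junb* and *Ier3* are shown because these genes carried the differences between the groups or the spread between libraries. The sequences are from RefSeq on the mouse build GRCm38.p6, which is older than the build of the count table. Of the 10 genes 8 had such a window. Each line runs 5′ to 3′ towards the start site on the gene's own strand. Capitals mark matches on either strand to TGACG (the core of the CRE, contained in the full element), to TGACATCA (a variant of the CRE), to TATAAA, and to the NF-κB motif.
Fos, chr12:85473640-85473889, plus strand: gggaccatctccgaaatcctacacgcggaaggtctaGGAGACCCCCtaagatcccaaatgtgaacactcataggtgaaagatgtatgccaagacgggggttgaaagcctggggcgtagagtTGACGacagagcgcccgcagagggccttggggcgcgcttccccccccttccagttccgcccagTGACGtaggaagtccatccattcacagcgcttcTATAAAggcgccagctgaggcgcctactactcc
Jun, chr4:95052223-95052472, minus strand: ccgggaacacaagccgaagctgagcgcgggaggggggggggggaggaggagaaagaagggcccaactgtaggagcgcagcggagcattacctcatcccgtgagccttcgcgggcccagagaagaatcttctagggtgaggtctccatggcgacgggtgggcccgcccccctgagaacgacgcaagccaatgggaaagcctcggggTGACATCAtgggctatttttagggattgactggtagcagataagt
Junb, chr8:84978749-84978998, minus strand: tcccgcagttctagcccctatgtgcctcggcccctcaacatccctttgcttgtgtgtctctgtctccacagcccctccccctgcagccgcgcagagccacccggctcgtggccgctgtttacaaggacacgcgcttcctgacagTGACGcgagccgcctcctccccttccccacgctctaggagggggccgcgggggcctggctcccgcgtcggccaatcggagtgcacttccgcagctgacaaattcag
Ier3, chr17:35821463-35821712, plus strand: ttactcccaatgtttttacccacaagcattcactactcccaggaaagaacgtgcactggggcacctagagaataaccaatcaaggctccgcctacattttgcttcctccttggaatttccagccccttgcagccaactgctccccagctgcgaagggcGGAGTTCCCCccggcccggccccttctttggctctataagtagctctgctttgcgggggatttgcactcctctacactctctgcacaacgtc

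*Fos* held TGACG at 129 to 125 and at 66 to 62 bases before the start, TATAAA at 33 to 28 bases and an NF-κB match at 214 to 205 bases. *Jun* held TGACATCA at 45 to 38 bases, *Junb* held TGACG at 106 to 102 bases, and *Ier3* held an NF-κB match at 92 to 83 bases before the start. Over 32851 mouse windows of the same kind, TGACG was in 17.8%, TGACATCA in 2.93%, TATAAA in 12.4% and the NF-κB motif in 7.25%. The TRE (TGACTCA, 4.46% of windows), the full CRE (TGACGTCA, 1.55%) and the EGR motif GCGTGGGCG (0.536%) were not among the matches in the 12 windows of the 8 genes, which says only that these letters are not in these windows. Matches to the CArG box, which serum response factor binds, were found in windows of *Egr2* and in 1.47% of all windows. A match is a description of the sequence and not of binding.

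Per kb of exon, the level of *Junb* was the highest of the 10 genes in each group by its mean, at 22.6 ± 13.5 CPM per kb in M0 (SD, n = 3) and 127 ± 86.4 with CaP microrods. *Fos* at 13.2 ± 1.36, *Ier3* at 9.13 ± 6.11, *Jun* at 6.37 ± 1.83 and *Egr1* at 5.89 ± 0.879 CPM per kb followed in M0. *Fosl1*, *Jund*, *Fosl2* and *Egr2* lay between 0.862 and 2.45 CPM per kb in M0. *Fosb* was close to absent from all groups, with 0 to 9 counts per library, and M1, M2 and SiO2 libraries never exceeded 3 counts, taken as the floor. The M0 libraries held 6, 0 and 3 counts of *Fosb* and the CaP libraries 2, 4 and 9. It did not pass the filter on low counts and was not tested, and the other 9 genes passed it in both models.

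**Figure D1:**
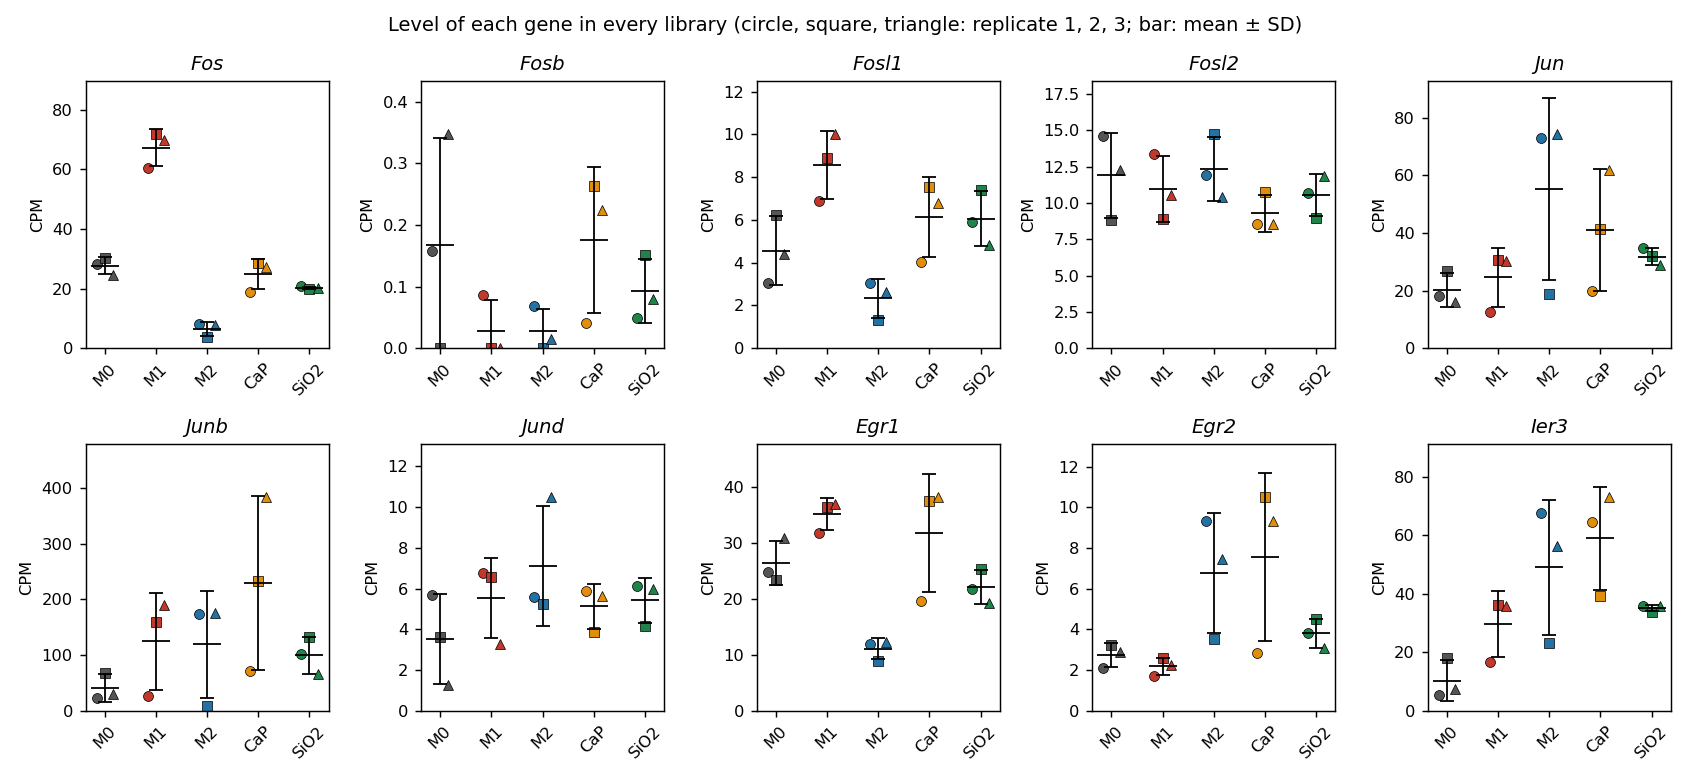
Level in CPM (y axis, linear, a separate scale for each gene) of the 10 genes in each of the 15 libraries, by group (x axis). Circles, squares and triangles are replicates 1, 2 and 3, and the bars are the mean ± SD of 3 libraries. *Fos* has its M1 libraries highest and its M2 libraries lowest, *Egr1* has its M2 libraries lowest, and *Jun* and *Junb* have 1 low library in each of M1, M2 and CaP.

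A gene was called changed at an adjusted p below 0.05 with an absolute log2 fold change above 0.5 (edgeR's quasi-likelihood test, Benjamini-Hochberg adjustment over all genes tested). Against M0, M1 changed 2 of the 9 genes tested, *Fos* and *Ier3*, both higher, beside 14.1% of all genes called in that comparison and 9.7% called higher. M2 changed 3 of 9, with *Fos* and *Egr1* lower and *Ier3* higher, beside 4.13% of all genes (2.13% lower and 2% higher). CaP microrods changed 1 of 9, *Ier3*, which rose, beside 0.409% of all genes (0.289% higher). SiO2 microrods changed 0 of 9 by edgeR, beside 0.0602% of all genes. There 2 of the 9 had an unadjusted p below 0.05, beside 9.27% of all genes, and DESeq2 called 1, beside 0.708% of all genes. Between CaP and SiO2 microrods 0 of 9 were called by edgeR, beside 0.0241% of all genes, and 0 by DESeq2, beside 0.0863% of all genes, and 0 had an unadjusted p below 0.05, beside 1.87% of all genes.

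The median log2 fold change of the 9 genes was 0.53 in M1, 0.94 in M2, 0.43 with CaP and 0.49 with SiO2 microrods against M0, and the medians of all genes were -0.01, 0.07, 0.06 and -0.02. Libraries of the groups did not overlap for 3 genes that were higher in M1 (*Fos*, *Fosl1*, *Egr1*), beside 20.2% of all genes that were higher with no overlap in that comparison. In M2, *Egr2* and *Ier3* lay above and *Fos* and *Egr1* below M0 with no overlap, beside 7.04% of all genes above and 8.17% below. *Junb* and *Ier3* lay above M0 in all CaP libraries, beside 7.27% of all genes. *Jun* and *Ier3* lay above and *Fos* below M0 in all SiO2 libraries, beside 9.1% of all genes above and 8.87% below. Of the 9 genes only *Ier3* was separate between CaP and SiO2, with CaP above, beside 3.41% of all genes. The comparisons with M0 share the same 3 control libraries.

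**Figure D2:**
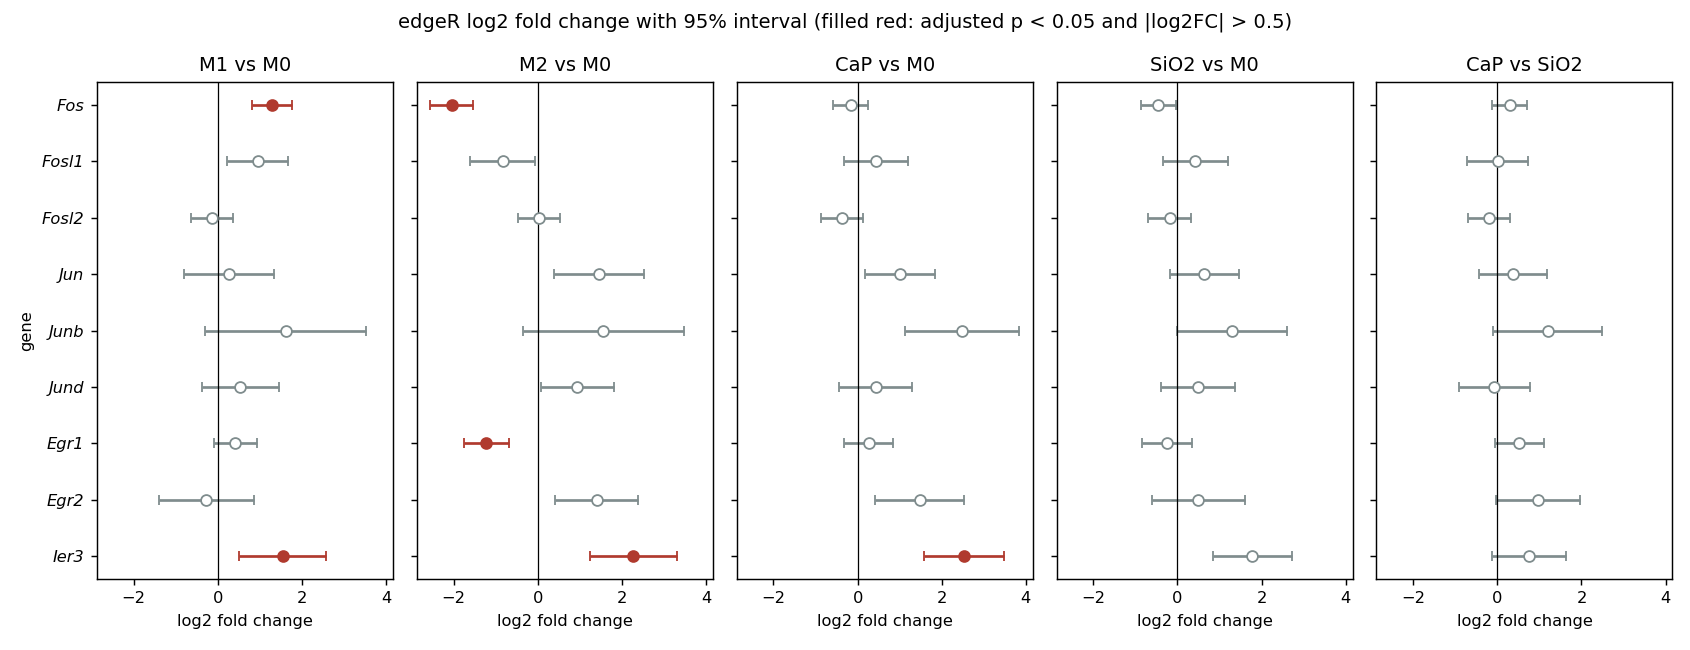
Log2 fold change (x axis) of the 9 tested genes (rows) in 5 comparisons, from edgeR, with its 95% interval as the bar. Filled red points are called changes. *Fos* is filled on the right in M1 and on the left in M2, *Egr1* is filled on the left in M2, *Ier3* is filled in M1, M2 and CaP, and no point is filled for SiO2 against M0 or for CaP against SiO2.

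*Fos*, the founding FOS protein of AP-1, gave the clearest separation. Its level was 28.3, 30.3 and 24.6 CPM in M0, 60.4, 71.7 and 69.9 CPM in M1, and 7.97, 3.81 and 7.64 CPM in M2. The CaP libraries held 19.0, 28.6 and 27.1 CPM and the SiO2 libraries 20.7, 20.0 and 20.1 CPM of *Fos*. All M1 libraries were above and all M2 libraries below those of the other groups, while the CaP libraries overlapped M0 and the SiO2 libraries all lay below it. The log2 fold change against M0 was 1.28 ± 0.22 (SE) in M1 (adjusted p = 0.00154, edgeR) and -2.05 ± 0.24 in M2 (adjusted p = 0.000176, edgeR). By the fit *Fos* was 9.99-fold higher in M1 than in M2, a log2 fold change of 3.32 ± 0.24 (adjusted p = 4.65e-07, edgeR). In these bulk libraries a change in the number of cells that make a transcript and a change in its amount per cell cannot be told apart.

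Both microrod groups held less *Fos* than M1 and more than M2. The log2 fold change of CaP microrods was -1.44 ± 0.22 against M1 (adjusted p = 0.000589, edgeR) and 1.88 ± 0.23 against M2 (adjusted p = 0.000199, edgeR). That of SiO2 microrods was -1.73 ± 0.22 against M1 (adjusted p = 0.000163, edgeR) and 1.59 ± 0.23 against M2 (adjusted p = 0.00105, edgeR). Against M0 the log2 fold change was -0.16 ± 0.19 with CaP (adjusted p = 0.685) and -0.45 ± 0.19 with SiO2 microrods (adjusted p = 0.509, both edgeR). In the order of mean levels, M1, M0, CaP, SiO2, M2, the first and the last steps passed the test and the steps from M0 to CaP and from CaP to SiO2 did not. The calls of *Fos* in M1 and in M2 against M0 stood in all 15 fits without 1 library.

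*Fosl1*, the gene of FRA-1, was likewise highest in M1 and lowest in M2 by its mean, with smaller steps. Its level was 3.05, 6.24 and 4.40 CPM in M0, 6.86, 8.87 and 9.99 CPM in M1, and 3.07, 1.31 and 2.64 CPM in M2. The M1 libraries lay above M0 with no overlap and the M2 libraries overlapped M0. Against M0 the log2 fold change was 0.94 ± 0.34 in M1 (adjusted p = 0.079) and -0.84 ± 0.36 in M2 (adjusted p = 0.245, both edgeR), and M1 was above M2 by 1.78 ± 0.35 (adjusted p = 0.00308, edgeR). M1 against M2 had 4 genes called, *Fos*, *Fosl1* and *Egr1* higher and *Egr2* lower in M1, beside 16.1% of all genes. With microrods *Fosl1* lay between 4.01 and 7.55 CPM with CaP and between 4.83 and 7.40 CPM with SiO2, overlapping M0. Past the threshold it came in M1 without M0 replicate 2, at 1.27 (adjusted p = 0.0449), and with an offset for GC content, at 0.82 (adjusted p = 0.0351), or at 0.83 with the replicate block added (adjusted p = 0.0423, all edgeR). With the GC offset the M2 change was also past the threshold, at -1.14 (adjusted p = 0.0207, edgeR).

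*Fosl2*, the gene of FRA-2, was the flattest of the 9 genes. All libraries held between 8.54 and 14.7 CPM, and its group means spanned 0.40 on the log2 scale, against 3.43 for *Fos*. The 95% interval of its log2 fold change ran from -0.64 to 0.37 in M1, from -0.47 to 0.52 in M2, from -0.88 to 0.13 with CaP and from -0.69 to 0.33 with SiO2 microrods, all against M0. No neighbouring groups in the order of its means differed by the test. The sign of its M2 change turned under an offset for GC content and without M0 replicate 2 or M2 replicate 2. That of its M1 change turned without M0 replicate 1 or M1 replicate 2, and that of its SiO2 change without M0 replicate 1.

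*Egr1*, the zinc finger factor that serum response factor switches on together with *Fos*, was lowest in M2. Its level was 24.9, 23.5 and 30.9 CPM in M0, 31.8, 36.5 and 37.1 CPM in M1, and 12.0, 8.94 and 12.3 CPM in M2. It held 19.7, 37.6 and 38.2 CPM with CaP and 21.8, 25.4 and 19.2 CPM with SiO2 microrods. The M2 libraries were below all libraries of the other groups, and the CaP libraries overlapped those of M0, M1 and SiO2. The log2 fold change of M2 against M0 was -1.23 ± 0.25 (adjusted p = 0.012, edgeR), a 2.34-fold lower level, and that of M1 against M0 was 0.42 ± 0.24 (adjusted p = 0.28, edgeR). The M2 call stood in all 15 fits without 1 library, with adjusted p up to 0.0484, and was lost without the 3 libraries that stood apart (adjusted p = 0.0794) and in a model of the 6 M0 and M2 libraries alone (adjusted p = 0.0975, both edgeR).

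*Egr1* was also higher than in M2 by 1.64 ± 0.25 in M1 (adjusted p = 0.000392, edgeR) and by 1.50 ± 0.25 with CaP microrods (adjusted p = 0.00201, edgeR), on the log2 scale. With SiO2 microrods it was higher than in M2 by 0.97 ± 0.25 (adjusted p = 0.0432, edgeR), and there the call stood in 4 of 15 fits without 1 library, those without M0 replicate 3 or a CaP library, with adjusted p up to 0.176. With the replicate number as a block, a term shared by all groups of the fit, the difference was 0.98 (adjusted p = 0.0587, edgeR), and with the block and a GC offset together it was 1.05 (adjusted p = 0.021, edgeR). It was lost without the 3 libraries that stood apart, at 0.77 (adjusted p = 0.252), and without a filter on low counts (adjusted p = 0.0569, both edgeR). In models of the 6 libraries compared, *Egr1* was called against M2 neither with SiO2 (adjusted p = 0.0875) nor with CaP microrods (adjusted p = 0.0798, both edgeR). SiO2 against M1 was -0.67 ± 0.24 (adjusted p = 0.0992, edgeR), and *Egr1* was called there without CaP replicate 1 and with a GC offset. CaP microrods against M2 had *Fos* and *Egr1* called, beside 4.46% of all genes, and SiO2 microrods against M2 had the same pair called, beside 3.65% of all genes.

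*Egr2*, the EGR factor linked to the IL-4 response of macrophages, ran the other way between M1 and M2. Its level was 2.10, 3.25 and 2.89 CPM in M0, 1.72, 2.59 and 2.23 CPM in M1, and 9.34, 3.55 and 7.46 CPM in M2. The CaP libraries held 2.85, 10.5 and 9.33 CPM and the SiO2 libraries 3.81, 4.53 and 3.09 CPM. M2 and CaP each had 2 high libraries and 1 low library, replicate 2 in M2 and replicate 1 with CaP, and the M2 libraries were all above M0. Against M0 the log2 fold change was 1.40 ± 0.46 in M2 (adjusted p = 0.116) and 1.47 ± 0.47 with CaP (adjusted p = 0.162, both edgeR), and neither was called. Without the low library it was 1.66 in M2 (adjusted p = 0.0389; 0.0234 without CaP replicate 1) and 1.88 with CaP (adjusted p = 0.0219, both edgeR), and DESeq2 called it with CaP (adjusted p = 0.0463).

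Against M1, *Egr2* was higher with CaP microrods by 1.75 ± 0.48 on the log2 scale (adjusted p = 0.0271, edgeR), and lower in M1 than in M2 by a log2 fold change of -1.68 ± 0.48 (adjusted p = 0.0303, edgeR). Each of these calls stood in 10 of 15 fits without 1 library. The first was lost without any M1 library or CaP replicate 2 or 3, and the second without any M1 library or M2 replicate 1 or 3, with adjusted p up to 0.11 (edgeR). CaP microrods against M1 had 2 genes called, *Fos* and *Egr2*, beside 12.7% of all genes, and SiO2 microrods against M1 had 1, *Fos*, beside 10.5% of all genes.

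*Jun*, the founding JUN protein, was measured at 18.0, 27.0 and 16.0 CPM in M0, 12.7, 30.6 and 30.5 CPM in M1, and 73.2, 18.9 and 74.3 CPM in M2. It was at 19.7, 41.4 and 62.0 CPM with CaP and 34.7, 31.9 and 28.7 CPM with SiO2 microrods. In M1, M2 and CaP 1 library was below the others, and the libraries of these groups overlapped M0, while all SiO2 libraries were above M0. *Jun* had a log2 fold change against M0 of 1.46 ± 0.50 in M2 (adjusted p = 0.13) and 1.01 ± 0.37 with CaP (adjusted p = 0.204, both edgeR), and no change of *Jun* was called. Without M2 replicate 2 the M2 change was 1.87 (adjusted p = 0.0195), and without CaP replicate 1 the CaP change was 1.33 (adjusted p = 0.0361, both edgeR), both past the threshold. The M2 change was also called without a filter on low counts (adjusted p = 1.91e-05, edgeR). In that fit standard errors of genes drew together. In M1 against M0 that of *Fos* went from 0.221 to 0.28 and that of *Egr2* from 0.525 to 0.386. Adjusted p-values of the unfiltered fit thus take less account of the spread of a single gene.

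*Junb*, a JUN protein that can act against *Jun* and that supports the IL-4 programme of macrophages, had the widest spread. Its level was 23.1, 68.9 and 30.8 CPM in M0, 25.8, 159 and 189 CPM in M1, and 174, 9.07 and 175 CPM in M2. It was 71.1, 234 and 384 CPM with CaP and 101, 133 and 66.3 CPM with SiO2 microrods. Within M2 the highest library held 19.3 times the level of the lowest, and within the CaP group 5.39 times, yet all CaP libraries were above all M0 libraries. CaP against M0 gave a log2 fold change of 2.49 ± 0.60 (adjusted p = 0.114, edgeR), and the 95% interval of the difference ran from 1.14 to 3.84. It was called by DESeq2 at 2.48 (adjusted p = 0.00155), which called 3 of the 9 genes with CaP, beside 3.87% of all genes, and by edgeR without CaP replicate 1, at 2.90 (adjusted p = 0.0315), or without a filter on low counts, at 2.55 (adjusted p = 0.0183). Against M0 it was 1.61 ± 0.89 in M1 (adjusted p = 0.265), 1.56 ± 0.89 in M2 (adjusted p = 0.41) and 1.29 ± 0.58 with SiO2 (adjusted p = 0.542, all edgeR). Without a filter on low counts edgeR called *Junb* in M1 (adjusted p = 1.26e-08) and in M2 (adjusted p = 5.27e-08) as well, while DESeq2 did not. The limit of the unfiltered fit given for *Jun* applies to these calls, and the M1 and M2 libraries overlapped M0.

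*Jund*, the JUN protein that resting cells usually keep, lay between 1.27 and 10.5 CPM in all libraries. Its mean was 3.53 ± 2.20 CPM in M0, 5.54 ± 1.95 in M1, 7.11 ± 2.93 in M2, 5.13 ± 1.10 with CaP and 5.41 ± 1.09 with SiO2 microrods (SD, n = 3). All groups overlapped M0, and the log2 fold change in M2, the highest group, was 0.94 ± 0.41 (adjusted p = 0.251, edgeR).

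*Ier3* was higher by its mean in each of the other 4 groups than in M0. Its level was 5.26, 18.2 and 7.52 CPM in M0, 16.8, 36.3 and 36.0 CPM in M1, and 67.7, 23.3 and 56.3 CPM in M2. It was 64.6, 39.3 and 73.1 CPM with CaP and 35.9, 33.9 and 35.9 CPM with SiO2 microrods. The M2, CaP and SiO2 libraries were all above M0 replicate 2, the highest M0 library, and the CaP libraries were all above the SiO2 libraries. The log2 fold change against M0 was 2.53 ± 0.42 with CaP (adjusted p = 0.0453), 2.27 ± 0.48 in M2 (adjusted p = 0.0156), 1.54 ± 0.48 in M1 (adjusted p = 0.046) and 1.78 ± 0.42 with SiO2 (adjusted p = 0.253, all edgeR). The first 3 were called and SiO2 was not, although DESeq2 called it (adjusted p = 0.0104).

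The calls of *Ier3* depended on which libraries were in the fit. The CaP call stood in 2 of 9 fits without 1 library, those without M0 replicate 2 or CaP replicate 1, with a log2 fold change of 2.14 to 3.26 and adjusted p of 0.0133 to 0.212, and it was lost without the 3 libraries that stood apart (adjusted p = 0.185) and with the legacy quasi-likelihood (adjusted p = 0.0595). The M1 call stood in 4 of 15 such fits, those without M0 replicate 2, M1 replicate 1, M2 replicate 2 or CaP replicate 2, with adjusted p up to 0.184. With the replicate number as a block, a term shared by all groups of the fit, it was lost at 1.52 (adjusted p = 0.0722, edgeR). It was also lost without the 3 libraries that stood apart (adjusted p = 0.0608, edgeR). With the block and a GC offset together the M1 change was 1.51 (adjusted p = 0.0419, edgeR). The M2 call stood in 11 of 15 fits and was lost without M0 replicate 1 or 3 or M2 replicate 1 or 3, with adjusted p up to 0.0854, and it was lost in the model of the 6 M0 and M2 libraries (adjusted p = 0.195, edgeR). M0 replicate 2 held 3.46 times the *Ier3* of the lowest M0 library.

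CaP and SiO2 microrods were compared directly for the 9 genes. *Junb* was higher with CaP by 1.20 on the log2 scale (95% interval -0.09 to 2.49), *Egr2* by 0.97 (-0.02 to 1.97), *Ier3* by 0.75 (-0.13 to 1.63) and *Egr1* by 0.52 (-0.06 to 1.11). *Fos* differed by 0.29 (-0.13 to 0.71), *Jun* by 0.37 (-0.44 to 1.18), *Fosl1* by 0.01 (-0.72 to 0.74), *Fosl2* by -0.19 (-0.70 to 0.31) and *Jund* by -0.07 (-0.91 to 0.78). The intervals of all 9 genes include 0, and those of *Junb*, *Egr2* and *Ier3* are wide, so these libraries do not show that the materials act alike. Both rod types were given at 0.1 mg/mL, and the paper states that equal mass concentrations hold different numbers of rods. Material and rod number cannot be told apart in this comparison.

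The spread between replicate libraries differed between the genes, and that of *Junb* was the widest. The residual SD of *Junb* was 1.48 on the log2 scale, above 99.9% of 2443 genes of like level, against 0.73 for *Jun* (90.7%), 0.65 for *Ier3* (88.3%), 0.31 for *Fos* (53.7%), 0.30 for *Egr1* (51.3%) and 0.27 for *Fosl2* (33.6%). Among the 9 genes the low libraries were shared. M2 replicate 2 was the lowest of its group in 8 of the 9 genes, and M1 replicate 1 and CaP replicate 1 in 7 of 9 each. How many of all genes tested were lowest in these libraries was not counted, so this is not shown to be particular to the 9 genes. *Junb* fell below its group mean by 2.83 in M2 replicate 2, by 1.83 in M1 replicate 1 and by 1.38 in CaP replicate 1, on the log2 scale, and in the same libraries *Jun* fell by 1.31, by 0.84 and by 0.90.

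**Figure D3:**
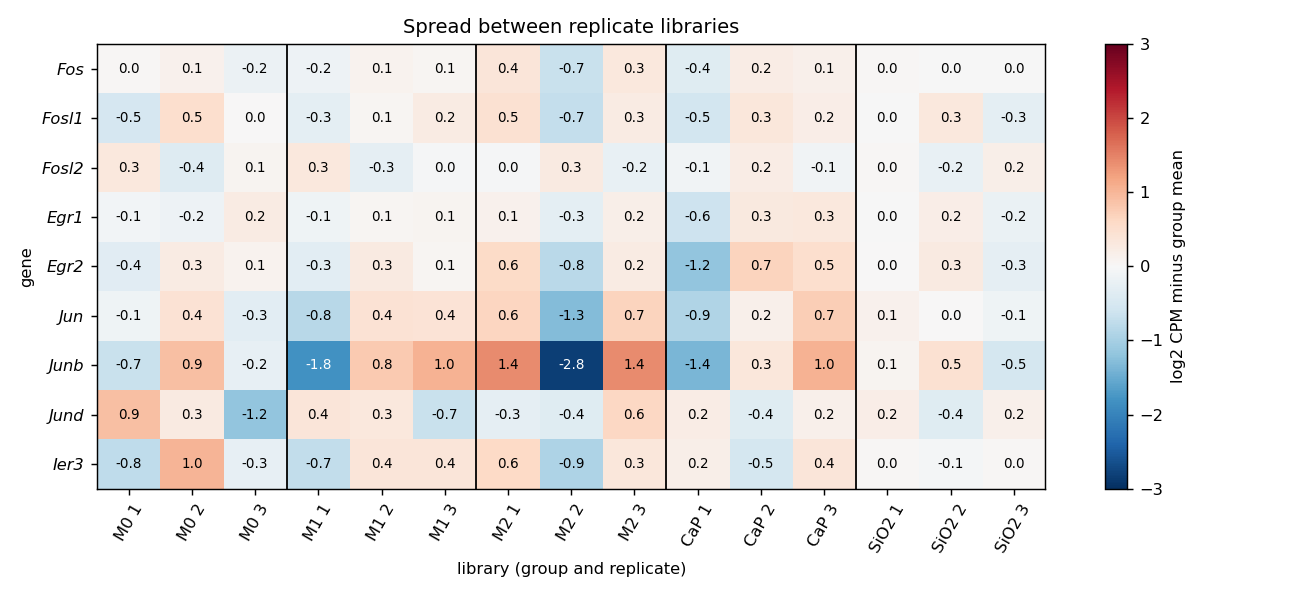
Log2 CPM minus the mean of the group (colour and printed value) for the 9 tested genes (rows) in the 15 libraries (columns, grouped as M0, M1, M2, CaP and SiO2). The darkest cell is *Junb* in M2 replicate 2, and the columns of M1 replicate 1, M2 replicate 2 and CaP replicate 1 are blue for most genes, whereas the SiO2 columns are close to white.

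The level of GC-rich genes varied over the same libraries. *Junb* and *Jund* transcripts hold 62.6% and 67.1% GC, above 99.2% and 99.9% of the genes tested, and those of *Fos* and *Egr2* hold 51.9% and 51.4%. The median deviation of the fifth of genes with the highest GC content ran from -0.30 to 0.22 on the log2 scale over the libraries, and it had the same sign as that of *Junb* in 13 of 15. It was -0.30 in M2 replicate 2, -0.24 in M1 replicate 1 and -0.17 in CaP replicate 1. In these libraries *Jund* was at -0.36, 0.36 and 0.22, and *Egr2*, of lower GC content, was at -0.81, -0.31 and -1.18. The part of GC content in the spread was not tested beyond the offset. With an offset for GC content in each library the CaP change of *Junb* was 2.14 ± 0.51 (adjusted p = 0.10, edgeR), and that of *Ier3* was 2.41 ± 0.38 (adjusted p = 0.0317, edgeR).

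The summed FOS and JUN families, per kb of exon, put the pairing partners side by side. The 4 FOS genes summed to 16.0 to 19.1 CPM per kb in M0, 34.4 to 40.1 in M1, 4.77 to 7.27 in M2, 12.5 to 19.4 with CaP and 14.0 to 14.9 with SiO2 microrods. The 3 JUN genes summed to 21.8 to 48.7 in M0, 22.3 to 116 in M1, 14.1 to 126 in M2, 49.0 to 235 with CaP and 49.2 to 85.7 with SiO2 microrods. The FOS sums of M1 and M2 did not overlap those of any other group, whereas the JUN sums of M1 and M2 overlapped those of all other groups. JUN transcripts made up 55.8 to 71.9% of the FOS and JUN total in M0, 39.4 to 74.3% in M1, 74.7 to 95.0% in M2, 79.7 to 92.9% with CaP and 77.9 to 85.2% with SiO2 microrods. All M2, CaP and SiO2 libraries were above all M0 and M1 libraries in this share. These sums are transcript levels and carry no measure of protein or of dimers.

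**Figure D4:**
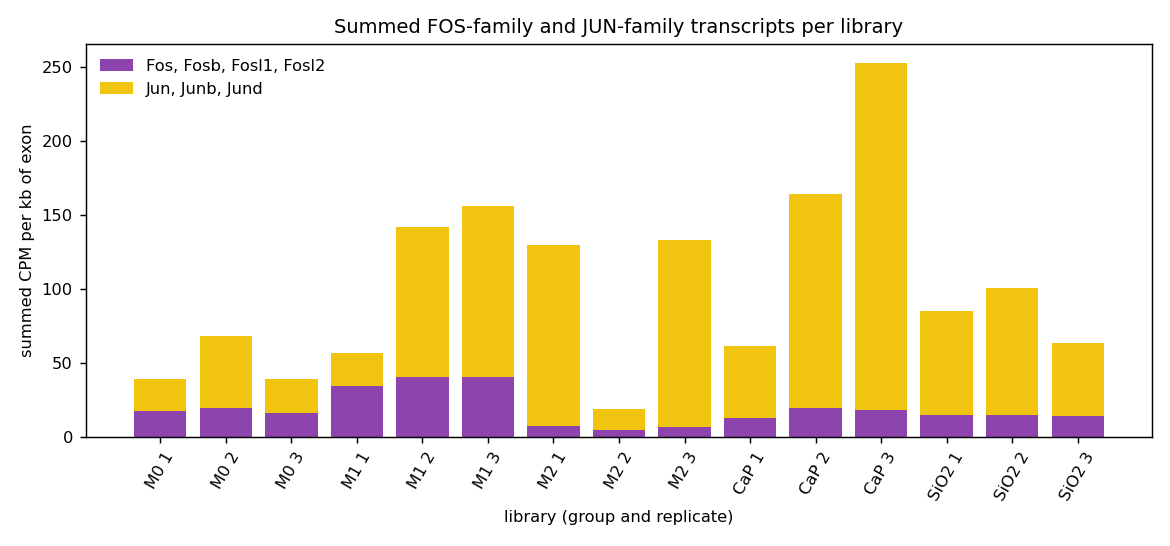
Summed level of the FOS genes (purple) and the JUN genes (yellow, stacked on top) in CPM per kb of exon (y axis, from 0) in each library (x axis). The purple part is tallest in M1 and smallest in M2, and the yellow part varies within groups, from 14.1 to 126 CPM per kb in M2.

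Genes around these factors were read from lists chosen for their roles. Of 14 other bZIP partners tested in M1 and M2, 1 was called higher in M1 and 1 higher in M2, against M0, beside 9.7% and 2% of all genes. *Batf*, a bZIP factor that pairs with JUN proteins, had no count in M0 and reached 13.2 ± 1.83 CPM in M1 (SD, n = 3), at least 63.8-fold higher than a floor of 3 counts per M0 library. *Batf3* rose in M2 by 1.80 ± 0.22 (adjusted p = 0.000231, edgeR) on the log2 scale. With SiO2 microrods 0 of 13 bZIP partners were called by edgeR or DESeq2, with 3 at an unadjusted p below 0.05, beside 9.27% of all genes.

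Of all genes 14.1% were called in M1 in either direction, and 2.13% were called lower in M2. Of 3 EGR partners tested 1 was lower in M1 and the same gene lower in M2, *Egr3*, at 3.86 ± 0.829 CPM in M0, 0.978 ± 0.214 in M1 and 0.682 ± 0.136 in M2 (SD, n = 3). Its log2 fold change was -1.98 ± 0.32 in M1 (adjusted p = 0.000973) and -2.41 ± 0.31 in M2 (adjusted p = 0.000445, both edgeR). With CaP microrods it was 0.06 ± 0.28 and with SiO2 microrods -0.77 ± 0.30 (adjusted p = 0.932 and 0.486, edgeR), and 0 of the 3 were called with either by edgeR or DESeq2. At an unadjusted p below 0.05 were 2 with CaP and 1 with SiO2, beside 18% and 9.27% of all genes. *Egr3* was lower than M0 in M1, where *Egr1* was not called, and in M2, where *Egr1* fell.

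Of 27 other early response genes tested 10 were higher and 1 lower in M1, with a list median of 0.52 against -0.01 for all genes. Of all genes 9.7% were called higher in M1 and 14.1% in either direction. *Nfkbiz*, an early NF-κB cofactor, rose in M1 by 3.23 ± 0.25 (adjusted p = 1.21e-06) and *Myc* by 3.15 ± 0.34 (adjusted p = 3.03e-05), while *Klf4* fell by 1.85 ± 0.22 (adjusted p = 6.58e-05, all edgeR). In M2 2 were higher and 2 lower, beside 2% and 2.13% of all genes. *Nfkbiz* fell there by 1.62 ± 0.29 (adjusted p = 0.00512, edgeR), a call lost in the model of the 6 M0 and M2 libraries (adjusted p = 0.157, edgeR). Of the other M2 calls, *Zfp36l1* stood in 3 of 15 fits without 1 library (without M1 replicate 1, M2 replicate 2 or CaP replicate 1), and *Nr4a1* in 3 (without M1 replicate 3, CaP replicate 1 or SiO2 replicate 1). The *Nr4a1* call was also lost without the 3 libraries that stood apart, at -1.18 (adjusted p = 0.125, edgeR). *Ier5l* was lost without any M0 library or M2 replicate 1 or 3, with adjusted p up to 0.285 (edgeR). With CaP microrods 0 of 27 were called by edgeR and 3 by DESeq2, beside 0.409% and 3.87% of all genes, and 15 had an unadjusted p below 0.05, beside 18%. With SiO2 microrods 0 of 27 were called by edgeR and by DESeq2, beside 0.0602% and 0.708% of all genes, and 7 had an unadjusted p below 0.05, beside 9.27%. The list medians were 0.11 and -0.10 against 0.06 and -0.02 for all genes.

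Of 19 genes of the MAP kinase and serum response factor pathway 0 were called in M1 by edgeR and 1 by DESeq2, beside 14.1% of all genes by each. There 7 had an unadjusted p below 0.05, beside 27.7% of all genes. In M2 2 of the 19 were lower, beside 2.13% of all genes. These were *Map2k6*, a kinase above p38, at -1.47 ± 0.28 (adjusted p = 0.00794, edgeR), and *Elk3*, a ternary complex factor at serum response elements, at -1.32 ± 0.28 (adjusted p = 0.0158, edgeR), neither called in the model of the 6 M0 and M2 libraries alone (adjusted p = 0.13 and 0.163, edgeR). *Map2k6* was also lost without M2 replicate 3 (adjusted p = 0.052), and *Elk3* without M0 replicate 3 (adjusted p = 0.0504) and without the 3 libraries that stood apart (adjusted p = 0.0685, all edgeR). With microrods edgeR called 0 of 19. At an unadjusted p below 0.05 were 5 with CaP and 4 with SiO2, beside 18% and 9.27% of all genes. DESeq2 called 2 with CaP and 0 with SiO2, beside 3.87% and 0.708%. Of 6 feedback inhibitors tested 3 were higher in M1 and 3 lower in M2, beside 9.7% and 2.13% of all genes. All of them were DUSP phosphatases, and the list medians were 1.24 and -1.17. *Dusp1*, which removes phosphate from p38 and JNK, rose in M1 from 24.1 ± 4.62 to 80.9 ± 11.2 CPM (SD, n = 3), a log2 fold change of 1.76 ± 0.29 (adjusted p = 0.000993, edgeR). *Dusp5* rose in M1 by 1.45 ± 0.29 (adjusted p = 0.00375, edgeR) and fell in M2 by 1.49 ± 0.34 (adjusted p = 0.0269, edgeR), and the M2 call was lost without the 3 libraries that stood apart (adjusted p = 0.0541) and in the 6-library model (adjusted p = 0.178, all edgeR). All 3 M2 calls, *Dusp2*, *Dusp5* and *Dusp6*, were lost without M0 replicate 1, M2 replicate 1 or M2 replicate 3, with adjusted p up to 0.132, 0.179 and 0.132 (edgeR). *Dusp2* and *Dusp6* were also lost there in the 6-library model (adjusted p = 0.288 and 0.129, edgeR). *Dusp6* stood in 2 of 15 fits without 1 library, those without CaP replicate 1 or 2, and was lost without the 3 libraries (adjusted p = 0.156, edgeR). In M1 *Dusp2* was lost without M0 replicate 2 or M1 replicate 1 (adjusted p up to 0.0516) and with the GC offset (adjusted p = 0.115, all edgeR). With microrods edgeR called 0 of 6. At an unadjusted p below 0.05 were 3 with CaP and 2 with SiO2, beside 18% and 9.27% of all genes. DESeq2 called 1 with CaP and 0 with SiO2, beside 3.87% and 0.708%.

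Of 11 described AP-1 or EGR1 target genes tested 1 was higher and 1 lower in M1, and 2 were higher and 3 lower in M2. Of all genes 9.7% were called higher and 14.1% in either direction in M1. In M2 2% were called higher and 2.13% lower. *Mmp9*, a gelatinase, rose in M1 by 2.88 ± 0.35 (adjusted p = 9.62e-05, edgeR). *Hbegf*, an EGF receptor ligand, rose in M2 by 1.45 ± 0.19 (adjusted p = 0.000581), while *Pdgfb* fell by 1.24 ± 0.17 (adjusted p = 0.00087) and *Plaur*, the urokinase receptor, by 0.75 ± 0.14 (adjusted p = 0.00736, all edgeR), a call lost without the 3 libraries that stood apart (adjusted p = 0.0697, edgeR). In the 6-library model none of these 3 was called in M2, with adjusted p of 0.0728 for *Hbegf*, 0.0806 for *Pdgfb* and 0.229 for *Plaur* (edgeR). *Pdgfa*, the other gene called higher in M2, was lost without any M0 library or M2 replicate 3 (adjusted p up to 0.0916, edgeR). Without the 3 libraries that stood apart it was also lost, at 0.78 (adjusted p = 0.112, edgeR). *Plau*, the gene of urokinase, fell in M1 by 2.31 (adjusted p = 0.0392, edgeR), lost with the replicate block (adjusted p = 0.0602, edgeR) and in 7 of 15 fits without 1 library (adjusted p up to 0.165). With CaP microrods edgeR called 1 of 11 and DESeq2 called 5, beside 0.409% and 3.87% of all genes, and 7 had an unadjusted p below 0.05, beside 18%. The gene called by edgeR was *Spp1*, the gene of osteopontin, which rose from 4348, 4980 and 5379 CPM in M0 to 9473, 9682 and 8989 CPM. Its log2 fold change was 0.94 ± 0.13 (adjusted p = 0.0174, edgeR), and the call stood in 3 of 9 fits without 1 library, those without M0 replicate 2, CaP replicate 1 or SiO2 replicate 2 (adjusted p up to 0.0857), and was lost without the 3 libraries that stood apart (adjusted p = 0.124, edgeR), although the libraries of both groups did not overlap. The fit to all 15 libraries did not call it either (adjusted p = 0.0875, edgeR). With SiO2 microrods *Spp1* was at 6277, 6638 and 5937 CPM, also above all M0 libraries, with a log2 fold change of 0.36 ± 0.13 (adjusted p = 0.456, edgeR). There 0 of 11 were called by edgeR and by DESeq2, beside 0.0602% and 0.708% of all genes, with 3 at an unadjusted p below 0.05, beside 9.27%. *Spp1* fell in M2 by 1.81 ± 0.23 (adjusted p = 0.00047, and 0.0973 in the 6-library model, edgeR).

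Over the 15 libraries the genes most like each factor were sought by the root mean square difference of centred log2 CPM. *Fos* was nearest to the gene ENSMUSG00000121233 (0.362), *Gm15964* (0.442) and *Tnf* (0.455). *Fosl1* was nearest to *Slc39a4* (0.178), *Arsg* (0.249) and *Arrdc3* (0.275), and *Egr1* to *Elk3* (0.205), *Tmem38b* (0.237) and *Arrdc3* (0.239). *Fosl1* and *Egr1* were nearest to each other among the 9 genes, at 0.361. Among all genes tested *Egr1* was at rank 23 for *Fosl1*, and *Fosl1* at rank 33 for *Egr1*. *Jun* was nearest to *Mgat1* (0.244), *Egr2* to *Amz1* and *Mfge8* (both 0.326), *Junb* to *Lypla2* (0.407), *Jund* to *Gm5873* (0.322) and *Ier3* to *Naglu* (0.558). Among the 9 genes *Jun* was the nearest to *Egr2*, *Junb* and *Ier3*, at 0.433, 0.942 and 0.739, but at rank 46, 302 and 176 among all genes tested.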

How the data were processed

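RNA of 15 wells (5 groups of 3) was made into Smart-seq2 libraries. Paired-end reads went through STAR and Salmon with Ensembl genes (build GRCm39 per the labels), and the authors deposited whole-number counts per gene, not normalized, which may be rounded estimates. The counts of overlapping genes rest on that step. Symbols, exon lengths and GC content came from an annotation of another build (GC known for 90.7% of genes tested). The members and lists were chosen with earlier results of these data known. The results of 1 list gene are not reported here.

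Tests used edgeR 4.0.16 in R 4.3.3 (filterByExpr, TMM, quasi-likelihood with legacy set to false). Comparisons with M1 or M2 came from a fit to all 15 libraries (16654 genes), and the others from a fit without M1 and M2 (9 libraries, 16621 genes). Neither held a replicate term. CPM are counts relative to the TMM-scaled library size, and log2 CPM used a prior count of 2. With 3 libraries per group an exact permutation test cannot go below p = 0.1, so adjusted p-values of the models are given. They weigh a difference against the spread between wells, which in the microrod groups also holds differences between preparations. Reads were not tagged by molecule, so floors cover counting error only.

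Genes named beside the 10 factors are list genes called in a microrod comparison, and from up to 3 per list and direction with the smallest p in M1 or M2 against M0. Same-numbered libraries deviated together (every correlation above 0.1, from the data, not from the labels) in M1 with M0 (0.206 to 0.292) and in SiO2 with M2 (0.128 to 0.506). Alternatives were DESeq2 1.42.0, other size factors, no filter, a replicate block, other libraries in the model, thinned counts and leaving out libraries. The block was a replicate term shared by all groups of a fit, and no fit paired only the groups compared. The legacy quasi-likelihood and GC offsets were added after seeing the data. The fits were tested on simulated data.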

Additional observations from a re-analysis of the deposited data

How the results depend on the processing

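The number of the 9 genes called changed under at least 1 setting in 9 of 10 comparisons. For CaP against M0 (1 called) it was 3 with DESeq2 (3.87% of all genes called), 2 without a filter on low counts (0.393%), and 0 with the replicate block (0.168%), without the 3 libraries that stood apart (0.0911%) and with the legacy quasi-likelihood (0.295%), and 0 to 4 without 1 library (4 without CaP replicate 1, 1 without M0 replicate 2, 0 without any other). For M1 against M0 (2) it was 1 with the block (12.7%), in the model of 6 libraries (12.7%) and without the 3 libraries (20.7%), and 1 to 3 without 1 library. It was 3 there without a filter (6.45%), with the GC offset (13.2%) and with block and offset together (12.2%). For M2 against M0 (3) it was 6 without a filter (2.17%) and 1 in the model of 6 libraries (0.635%), and 2 to 5 without 1 library. It was 4 there with the GC offset (4.18%) and 2 without the 3 libraries (3.48%). For CaP against M1 (2) it was 4 without a filter (7.37%) and 1 to 2 without 1 library, and for CaP against M2 (2) it was 4 without a filter (1.8%), 1 in the model of 6 libraries (1.49%) and 2 to 3 without 1 library. CaP against M2 also gave 3 with DESeq2 (3.97%), with DESeq2 size factors (4.45%) and with the GC offset (4.8%). For SiO2 against M0 (0) it was 1 with DESeq2 (0.708%). For SiO2 against M1 (1) it was 2 in the model of 6 libraries (15.8%) and with the GC offset (9.24%), and 1 to 2 without 1 library. For SiO2 against M2 (2) it was 1 with the block (3.1%), in the model of 6 libraries (1.7%) and without the 3 libraries (2.82%), and 1 to 3 without 1 library. It was 3 there with DESeq2 (4.06%), with the GC offset (4%) and with block and offset together (3.65%). M1 against M2 (4) gave 5 without a filter (8.37%) and without the 3 libraries (30.1%), 3 with thinned counts (14.1%) and 3 to 5 without 1 library. CaP against SiO2 gave 0 in all settings run. For counts without a filter the limit given for *Jun* applies. The cause was not tested, except that models of fewer libraries hold fewer samples.

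Small changes turned sign. *Egr1* in CaP against M0 was -0.047 with the GC offset. *Fosl1* between CaP and SiO2 was -0.015 with the block, -0.116 with the GC offset and -0.17 to 0.242 without 1 library. *Fosl2* in M2 was -0.061 with thinned counts, -0.097 without the 3 libraries, -0.096 with the GC offset and -0.157 to 0.199 without 1 library, in M1 -0.314 to 0.042 and with SiO2 -0.357 to 0.015 without 1 library. Between CaP and SiO2, *Jun* was -0.081 to 0.694 and *Jund* -0.212 to 0.061 without 1 library. Outside M1 with M0 and SiO2 with M2, some same-numbered pairs deviated together, but no comparison had all of its pairs above 0.1 (correlations from -0.704 to 0.604). The block there changed the call of *Ier3* with CaP (adjusted p = 0.102, edgeR). The call of *Fos* in M1 and in M2 stood in all settings run. *Fosb* had at most 9 counts in a library, and 1 in the largest, M2 replicate 3. Low counts also limit *Fosl1*, *Egr2* and *Jund*. Their lowest counts were 10 in M2 replicate 2, 20 in M1 replicate 1 and 11 in M0 replicate 3.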
